A study of Mus musculus with 20 samples.

Results

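The genes that carry newly made protein from the endoplasmic reticulum (ER) to the Golgi, and return escaped ER proteins, were examined in IgA+ plasma cells of the mouse small intestine at 4 times of day. The set held 40 genes out of 47069 in the count table, chosen as a list of symbols by role. A total of 38 were found by the symbols of the deposited FPKM table, and Sec13 and Copb2 were matched by their Ensembl identifiers. All 40 passed the filter on low counts, which kept 13967 genes. By role the set comprised 12 COPII coat and assembly genes, 8 cargo receptors, 3 KDEL receptors, 7 COPI coat genes, 2 ARF GTPases, 2 Golgi matrix genes, 5 SNAREs and Yif1a.

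All animals were wild-type C57BL/6 mice without a transgene or a drug, and each of the 20 libraries came from 1 animal. CD138+ IgA+ cells of the small-intestinal lamina propria were sorted at zeitgeber times ZT0, ZT6, ZT12 and ZT18, with 5 animals at each time. Zeitgeber time counts hours from lights on, so that ZT0 and ZT12 stand at the light transitions and ZT6 and ZT18 in the middle of the light and the dark phase. The age of these animals was not given in the sources used here. The study's methods name female mice for its assays on sorted plasma cells unless stated otherwise, and its RNA section refers back to that sorting. Each animal was sampled at 1 time only.

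Secretory proteins leave the ER in vesicles covered by the COPII coat, which assembles when the GTPase SAR1 is loaded with GTP and recruits the SEC23-SEC24 inner layer and the SEC13-SEC31 outer layer. SEC24 reads sorting signals on the cargo, and transmembrane cargo receptors bring soluble cargo to it. Coatomer, the COPI coat, forms on the Golgi under ARF GTPases and carries KDEL receptors with their bound ER chaperones back, while SNARE proteins fuse the vesicles with their target membrane. Plasma cells, which export antibody throughout their life, are known for an enlarged ER and an active secretory pathway.

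The libraries held 35570619 to 68018407 counts, of which immunoglobulin genes took 52.6% to 62.3%, and libraries of 1 time correlated at r = 0.967 to 0.978 across genes. Levels are given as CPM, counts relative to the library's size, which was scaled by the trimmed mean of M-values (TMM). With library totals in place of TMM, the median of all genes moved by -0.17 on the log2 scale in ZT12 minus ZT0 and by -0.13 in ZT12 minus ZT6, and all directions below are relative to the TMM scale. The plasma cell markers were high in every library, with Sdc1, which encodes CD138, at 693 to 862 CPM and Igha at 209565 to 358221 CPM. The 12 enterocyte markers summed to 42.4 to 49.4 CPM at ZT0, 45.3 to 81.8 at ZT6, 54.6 to 79.4 at ZT12 and, for ZT18, 54.3 to 71.0, mostly Epcam at 40.2 to 58.4 CPM. Every library of ZT12 and ZT18 was thus above every library of ZT0 in this sum, and Epcam was called between any times (adjusted p = 0.0014). The Paneth and goblet markers summed to 1.89 to 64.0 CPM. The B cell markers summed to 10.9 to 19.3 CPM and the T cell and ILC markers to 21.5 to 32.4 CPM, macrophage and dendritic markers to 65.9 to 102.8 CPM, stromal and endothelial markers to 26.4 to 37.7 CPM and granulocyte and mast cell markers to under 1 CPM, while the B cell gene Pax5 and the T cell gene Cd3e stayed under 1 CPM in every library. A list of 12 heat shock genes, which respond to handling, summed to 1181 to 2110 CPM in the ZT0 libraries, 733 to 2173 in those of ZT6, 1773 to 6946 in those of ZT12 and 1206 to 5013 in those of ZT18. The part of these lists in the results was not tested beyond leaving out the 3 libraries with most epithelial and the 3 with most heat shock RNA. In sorted bulk samples a change in the number of cells of one kind and a change in RNA per cell cannot be told apart.

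All of the genes were well expressed. Across the members and libraries, raw counts ran from 411 for Kdelr3 to 22114 for Lman1. Compared per length, as FPKM averaged over 20 libraries (38 genes, since the FPKM table held no row for Sec13 or Copb2), the highest level was that of Tmed2, a p24 family cargo receptor, at 204 ± 12.6 (SD, n = 20). Its lowest library, at 183 FPKM, was above the highest library of the next gene by mean, at 180.3 FPKM, though Lman1 reached 189 FPKM in 1 library. Surf4, a receptor for soluble cargo, Arf4 and Lman1 followed at 168 ± 7.95, 167 ± 7.47 and 167 ± 10.2 FPKM, with ranges that overlapped one another. The lowest was Kdelr3, at 10.03 ± 1.34 FPKM, with every library (range 7.60 to 12.3) under those of Sec23a (range 12.7 to 19.1). From rank 2 to rank 34, from Surf4 to Golga2, the ranges of all neighbouring genes overlapped.

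The first question was which of these genes differed between any of the 4 times. By edgeR's quasi-likelihood F test with Benjamini-Hochberg adjustment over all 13967 genes, at the study's limit of 0.01, 9 of the 40 genes were called, against 19.5% of all genes tested. The 9 were Sec24a, Sec24d, Sec23a, Sec16a, Cope, Kdelr2, Stx5a, Copb1 and Sec22b. As a share, 22.5% of the set was called, near the background, but this share depended on the test and the limit. By DESeq2, 17 genes were called, 42.5% of the set against 24.6% of the genes given an adjusted p, and at an adjusted p under 0.05 by edgeR 20 were called, 50% against 31.0% of all genes. A 24-hour cosine was called in 3 of 40, Sec24d, Cope and Stx5a, against 11.3% of all genes. The cosine count became 5 without ZT6 replicate 5 and 6 without ZT12 replicate 4, 12.5% and 15.0% of the set against 10.3% and 11.5% of all genes. By DESeq2 it was 10, 25.0% against 15.6%. By role, 4 of 12 COPII genes, 2 of 7 COPI genes, 2 of 5 SNAREs and 1 of 3 KDEL receptors were called between any times, and none of the 8 cargo receptors, 2 ARF GTPases, 2 Golgi matrix genes or Yif1a. The fitted peak-to-trough fold had a median of 1.10 over the 40 genes and of 1.20 over all genes, many of which have fewer counts.

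**Figure D1:**
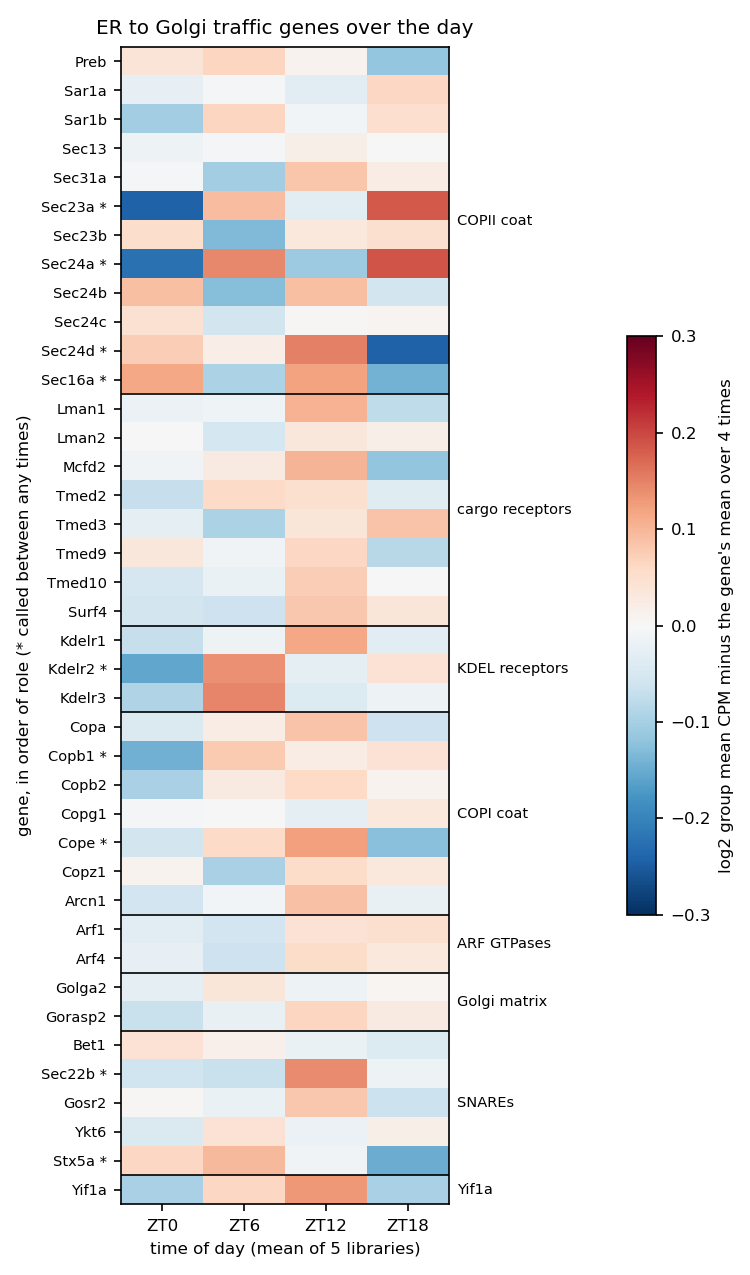
Group mean CPM of the 40 traffic genes at ZT0, ZT6, ZT12 and ZT18 (columns, means of 5 libraries), drawn as the log2 difference from each gene's own mean over the 4 times, red above and blue below, with rows in order of role. Asterisks mark the 9 genes called between any times, and Sec24a and Sec23a run opposite to Sec16a and Sec24d at ZT18 within the same coat.

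The COPII coat held the 4 members with the smallest any-time p. Sec24a, one of 4 genes for the cargo-binding SEC24 subunit (GRCm38 chr11:51692264-51763634, minus strand), stood at 151, 125, 128, 134 and 142 CPM in the 5 libraries of ZT0, at 167, 166, 184, 179 and 181 at ZT6, at 159, 145, 153, 130.3 and 149 at ZT12 and at 189, 169.5, 185, 181 and 179 at ZT18. Every library of ZT6 and ZT18 was above every library of ZT0 and ZT12. Sec24a rose by 0.37 ± 0.056 (log2, SE) from ZT0 to ZT6 with adjusted p = 1.35e-05, changed by -0.25 ± 0.056 from ZT6 to ZT12 with adjusted p = 0.0026, and rose again by 0.30 ± 0.056 from ZT12 to ZT18 with adjusted p = 0.00019. It thus had 2 highs among the 4 times sampled, in the middle of the light and of the dark phase. The any-time adjusted p was 6.03e-07, while the 24-hour cosine gave 0.25. The fall from ZT6 to ZT12 was not called without the 3 libraries with most heat shock RNA (adjusted p = 0.039), without the 3 with most epithelial RNA (0.02), without ZT12 replicate 4 (0.015) or without ZT6 replicate 3 (0.011).

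Sec24d, the paralogue with the highest FPKM of the 4 (chr3:123267455-123365641, plus strand), gave 173, 173, 181, 167 and 184 CPM at ZT0, 172, 150.4, 170.3, 154 and 198 at ZT6, 201, 189, 187, 180.4 and 169 at ZT12 and 142, 137, 135, 151 and 139 at ZT18. The 5 libraries of ZT18 lay below all those of ZT0 and ZT12 and met the range of ZT6 at its lowest library. It changed by -0.39 ± 0.059 from ZT12 to ZT18 with adjusted p = 6.82e-06, and by 0.32 ± 0.059 from ZT18 to ZT0 with adjusted p = 0.00025. Its any-time adjusted p was 2.05e-05 and the fitted 24-hour cosine peaked at 7.09 h with a peak-to-trough fold of 1.21 (adjusted p = 0.0029). The sampled means did not show that peak. At ZT6, the time nearest to it, the mean was 169 CPM, below 176 at ZT0 and 185 at ZT12. ZT6 replicate 5 was the highest library of its group at 198 CPM, and without it neither the cosine (adjusted p = 0.014) nor ZT18 minus ZT6 (-0.20, adjusted p = 0.012) was called.

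The remaining paralogues were not called between any times. Sec24b averaged 25.1, 21.6, 25.1 and 22.7 CPM at ZT0, ZT6, ZT12 and ZT18 (adjusted p = 0.039), and Sec24c averaged 149, 139, 144 and 145 CPM (adjusted p = 0.32). Because the 4 products take the same place in the coat and differ in the signals they bind, their shares of the summed SEC24 FPKM, which do not depend on library scaling, were set side by side. Sec24d made 56.8% ± 0.970 (SD, n = 5) of it at ZT0, 54.1% ± 2.61 at ZT6 and 57.5% ± 1.74 at ZT12, but 48.7% ± 1.66 at ZT18. Sec24a made 18.2% ± 1.28, 23.4% ± 1.28, 18.9% ± 0.995 and 25.9% ± 0.726 at the same times. At ZT18 the share of Sec24d (range 46.5% to 51.0%) was below every library of the other times and that of Sec24a (range 25.0% to 26.6%) was above those of ZT0 and ZT12, and it met ZT6 only at the highest ZT6 library, at 24.98%. These shares are given as a description with no test.

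**Figure D2:**
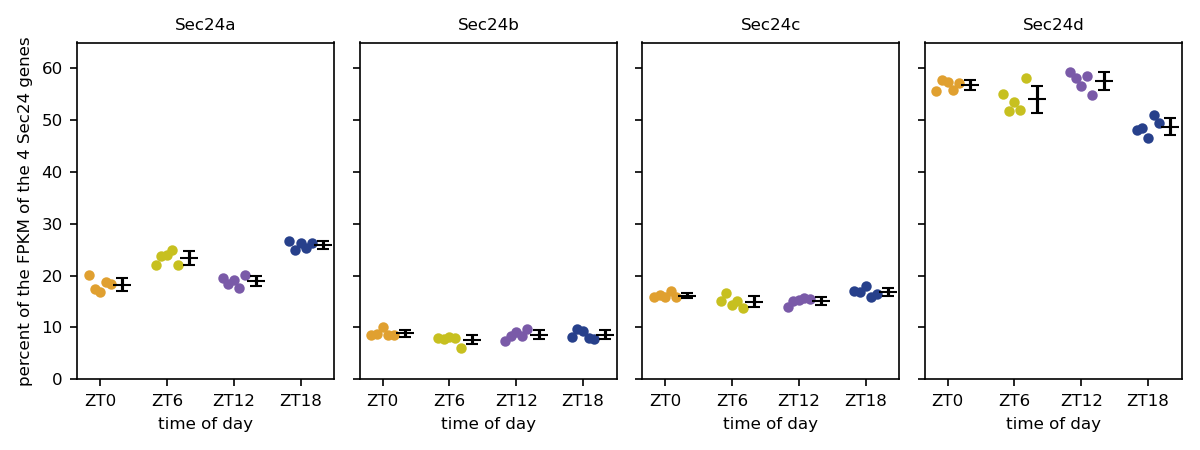
Share of each Sec24 gene in the summed FPKM of Sec24a, Sec24b, Sec24c and Sec24d (percent), by time of day. Coloured points are the 5 libraries of each time and black marks the mean ± SD, with Sec24d lowest and Sec24a highest at ZT18, at means of 48.7% and 25.9%.

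Sec23a, one of 2 genes for the inner-layer partner of SEC24 and activator of the SAR1 GTPase cycle (chr12:58958383-59012017, minus strand), gave 22.4, 20.5, 21.1, 21.8 and 21.4 CPM at ZT0, 25.5, 24.1, 28.0, 28.2 and 29.6 at ZT6, 24.6, 24.4, 25.3, 22.9 and 26.8 at ZT12 and 26.5, 28.6, 27.1, 29.1 and 32.9 at ZT18. All 5 libraries of ZT0 were below all 15 others. It rose by 0.34 ± 0.065 from ZT0 to ZT6 (adjusted p = 0.00035), and was lower at ZT0 than at ZT18 by a log2 difference of -0.43 ± 0.065 (adjusted p = 2.16e-05). Its any-time adjusted p was 2.62e-05. Its paralogue Sec23b averaged 78.6, 69.2, 77.5 and 78.4 CPM over the 4 times (adjusted p = 0.032), so that Sec23a made 18.9% ± 0.553 of the summed Sec23 FPKM at ZT0 and 25.1% ± 0.937 at ZT6.

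Sec16a, the scaffold that marks the ER exit sites where COPII assembles (chr2:26409431-26445216, minus strand), gave 104, 96.5, 104, 92.1 and 95.0 CPM at ZT0, 79.9, 82.2, 88.8, 85.4 and 88.8 at ZT6, 108, 99.3, 103, 95.5 and 88.7 at ZT12 and 83.9, 83.7, 83.1, 78.4 and 82.5 at ZT18. All libraries of ZT0 were above all of ZT6 and ZT18, and those of ZT12 were above all of ZT18 and met ZT6 only at 88.7 CPM. It was called in each of the 4 steps of 6 hours, at -0.21 ± 0.053, 0.22 ± 0.053, -0.26 ± 0.053 and 0.26 ± 0.053 in ZT6 minus ZT0, ZT12 minus ZT6, ZT18 minus ZT12 and ZT0 minus ZT18, with adjusted p of 0.0047, 0.0061, 0.00041 and 0.0008. The first 2 of these calls were lost without the 3 libraries with most epithelial RNA (adjusted p = 0.014 and 0.029) and with library totals (0.015 and 0.44). The call in ZT6 minus ZT0 was also lost without any one of ZT0 replicates 1 and 3 or ZT6 replicates 1, 2 and 4, and that in ZT12 minus ZT6 without any one of ZT6 replicates 1, 2 and 4 or ZT12 replicates 1, 2 and 3, at an adjusted p of up to 0.036. Sec24a and Sec16a were thus the only members called in every step, with opposite signs in each.

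Preb, which encodes the exchange factor SEC12 that loads SAR1 (chr5:30950853-30960361, minus strand), gave 208, 203, 193, 208 and 207 CPM at ZT0, 213, 204, 209, 199 and 212 at ZT6, 199, 194, 208, 215 and 183 at ZT12 and 187, 172, 189, 180.2 and 187 at ZT18. The libraries of ZT18 were below all of ZT0 and ZT6 and overlapped with ZT12 at its lowest library. It missed the any-time limit (adjusted p = 0.012) and fell by 0.18 ± 0.047 in ZT18 minus ZT6 (adjusted p = 0.0067), a call that was lost without any one of 8 libraries, ZT6 replicates 1, 2, 3 and 5 and ZT18 replicates 1, 2, 4 and 5, at an adjusted p of up to 0.022. Of the outer layer, Sec31a averaged 131, 122, 139 and 134 CPM (any-time adjusted p = 0.018) and rose by 0.19 ± 0.048 from ZT6 to ZT12 with adjusted p = 0.0094. That call was lost in 17 of 28 alternative settings, with an adjusted p of up to 0.56 with library totals. Its partner Sec13 averaged 63.8, 64.3, 65.3 and 64.5 CPM (adjusted p = 0.95), the flattest gene of the set by that p. The SAR1 GTPases Sar1a and Sar1b averaged 158, 160.1, 157 and 168 and 33.6, 37.7, 35.9 and 37.4 CPM over the 4 times, with any-time adjusted p of 0.35 and 0.16.

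**Figure D3:**
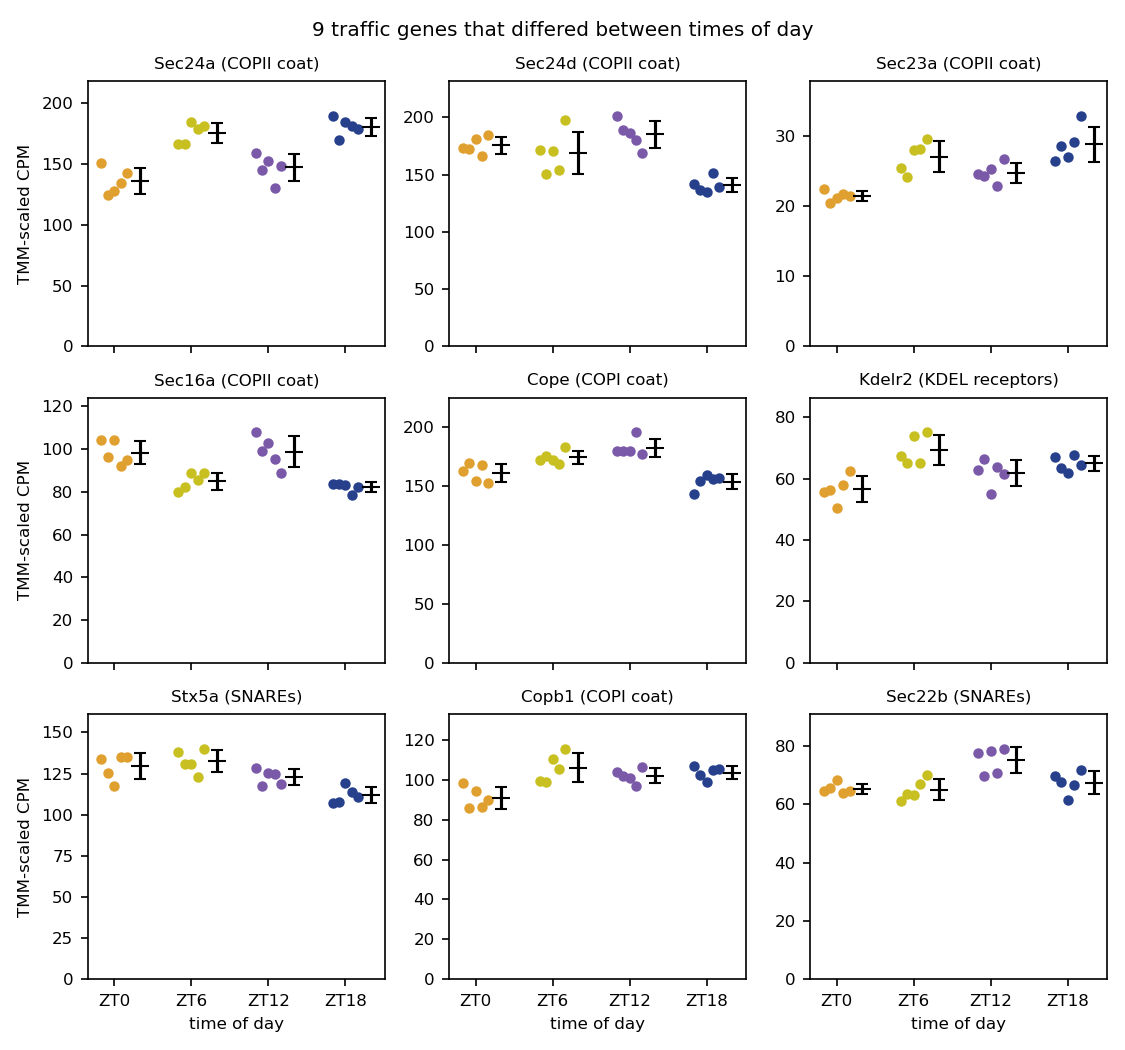
TMM-scaled CPM of the 9 traffic genes called between any times, by time of day on the horizontal axis. Coloured points are the 5 libraries of each time, black marks the mean ± SD, and each vertical axis starts at 0. Sec24a is higher at ZT6 and ZT18 in every library, and Sec24d is lowest at ZT18.

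In the COPI coat, Cope, the epsilon subunit of coatomer (chr8:70302518-70312993, plus strand), gave 163, 169, 154, 168 and 153 CPM at ZT0, 172, 175, 172, 169 and 183 at ZT6, 180.3, 180.1, 179.7, 196 and 177 at ZT12 and 143, 154, 159, 156 and 157 at ZT18. All libraries of ZT12 were above all of ZT0 and ZT18, and those of ZT6 were above all of ZT18. It fell by 0.25 ± 0.047 from ZT12 to ZT18 (adjusted p = 0.00022) and peaked at 8.95 h with a peak-to-trough fold of 1.19 (cosine adjusted p = 0.00052). With library totals it was called neither between any times (adjusted p = 0.065) nor by the cosine (0.051). ZT18 minus ZT6, at -0.18 ± 0.047 with adjusted p = 0.0064, was lost without any one of the same 8 libraries as for Preb, at an adjusted p of up to 0.031.

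Copb1, the beta subunit (chr7:114215559-114254711, minus strand), gave 98.3, 85.7, 94.5, 86.5 and 89.7 CPM at ZT0, 99.3, 98.9, 111, 106 and 116 at ZT6, 104, 102, 101, 96.7 and 107 at ZT12 and 107, 102, 98.8, 105 and 105 at ZT18. The libraries of ZT6 and ZT18 were all above those of ZT0, and 1 library of ZT12 fell within the range of ZT0. It rose by 0.22 ± 0.052 from ZT0 to ZT6 (adjusted p = 0.0025) and was called in no later step. Its any-time adjusted p of 0.0046 became 0.031, 0.02 and 0.015 without ZT0 replicates 2, 4 and 5, and 0.078 with library totals. The step from ZT0 to ZT6 was lost without ZT0 replicate 2, ZT6 replicate 3 or ZT6 replicate 5, at an adjusted p of 0.01 to 0.014.

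The other 5 coatomer genes were not called between any times. Copa, the alpha subunit, averaged 209, 218, 228 and 206 CPM at ZT0, ZT6, ZT12 and ZT18 (adjusted p = 0.04), and Arcn1, the delta subunit, averaged 192, 199, 212 and 197 (adjusted p = 0.081). Copb2, Copz1 and Copg1, the beta prime, zeta and gamma subunits, averaged 102, 111, 114 and 110.2, 55.3, 51.3, 57.0 and 56.1 and 129, 129, 127 and 132 CPM, with adjusted p of 0.068, 0.11 and 0.73. Copa, Copb2, Cope and Arcn1 each had their highest mean at ZT12, as did Copz1, while Copg1 had its lowest mean there. The GTPases that recruit coatomer, Arf1 and Arf4, averaged 229, 225, 241 and 242 and 202, 196, 213 and 209.9 CPM (adjusted p = 0.067 and 0.17).

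COPII and COPI were compared as the mean log2 CPM of their 12 and 7 genes in each library, which is a description and carries no p-value, since the lists were chosen with results of these data known. The COPII mean was 6.40 ± 0.034 (SD, n = 5), 6.41 ± 0.053, 6.44 ± 0.034 and 6.42 ± 0.011 in the order ZT0, ZT6, ZT12, ZT18, and the libraries of the 4 times overlapped. The COPI mean was 6.94 ± 0.042, 7.01 ± 0.056, 7.06 ± 0.030 and 6.99 ± 0.035, with all ZT12 libraries (7.03 to 7.10) above all ZT0 libraries (6.90 to 7.01). The difference COPII minus COPI, which is free of library scaling, was -0.54 ± 0.030, -0.60 ± 0.023, -0.61 ± 0.021 and -0.57 ± 0.035 in that order. The libraries of ZT0 (-0.58 to -0.50) were all above those of ZT12 (-0.63 to -0.59), while ZT6 and ZT18 overlapped. The shift of -0.0701 in ZT12 minus ZT0 became -0.080 to -0.060 when each of the 10 libraries was left out. Between any times 4 of 12 COPII and 2 of 7 COPI genes were called, 33.3% and 28.6%, against 19.5% of all genes. With so few genes in each coat, these shares do not set the coats apart from each other or from all genes. In ZT12 minus ZT0 no gene of either coat was called, against 3.86% of all genes. In this contrast 7 of 12 COPII and 6 of 7 COPI estimates were above 0, beside 6942 of 13967 for all genes.

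**Figure D4:**
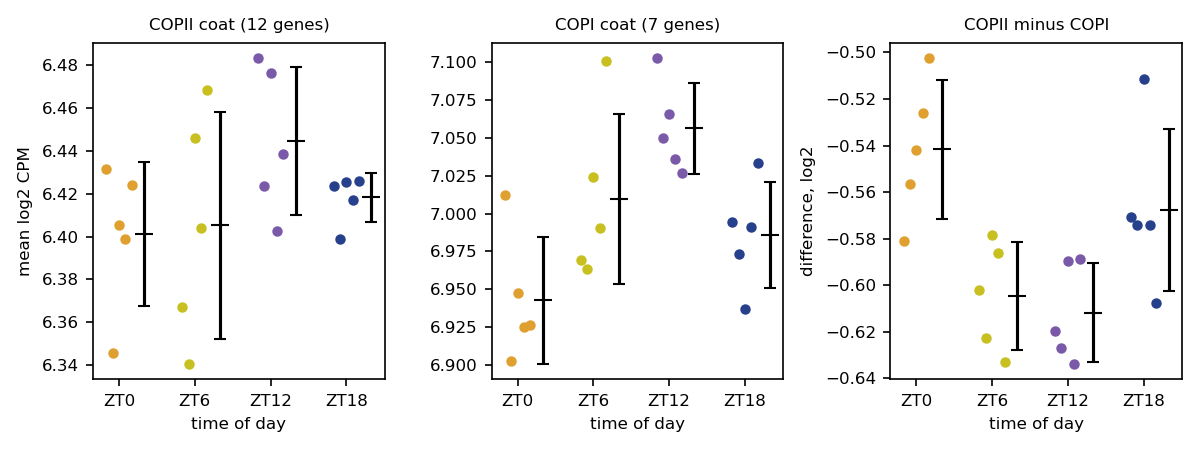
Mean log2 CPM of the 12 COPII genes (left) and the 7 COPI genes (middle), and their difference (right), in every library by time of day. Points are the 5 libraries of each time and black marks the mean ± SD. The vertical axes do not start at 0 and span less than 0.25 log2 units, and the difference is least negative at ZT0, at a mean of -0.54.

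None of the 8 cargo receptors was called between any times. Tmed2, the member with the highest FPKM, gave 201, 205, 212, 206 and 208 CPM at ZT0, 225, 215, 219.9, 226 and 239.8 at ZT6, 226, 224, 215, 231 and 222 at ZT12 and 198, 225, 205, 213 and 213 at ZT18 (adjusted p = 0.048). All libraries of ZT6 and ZT12 were above those of ZT0, and ZT18 spanned both. Lman1, the lectin ERGIC-53, which with Mcfd2 carries glycoproteins out of the ER, averaged 283, 284, 308 and 272 CPM at the 4 times (any-time adjusted p = 0.014) and fell by 0.18 ± 0.045 from ZT12 to ZT18 (adjusted p = 0.0043). This call was lost with library totals (adjusted p = 0.30), without the 3 libraries with most heat shock RNA (0.037), without the 3 with most epithelial RNA (0.020) and without any one of ZT12 replicates 1 and 4 or ZT18 replicates 1 and 3. Mcfd2 averaged 48.0, 49.3, 51.9 and 44.6 CPM, with its lowest mean at ZT18 too (adjusted p = 0.036). The other lectin, Lman2, averaged 193, 186, 197 and 195 (adjusted p = 0.42), and Surf4 236, 235, 259 and 251.1 (adjusted p = 0.028). The p24 genes Tmed3, Tmed9 and Tmed10 averaged 47.7, 45.7, 50.003 and 51.7, 159, 154, 162 and 146 and 253, 259, 276 and 262 CPM, with adjusted p of 0.054, 0.14 and 0.099.

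Among the KDEL receptors, which catch ER chaperones in the Golgi and hand them to COPI vesicles, Kdelr2 (chr5:143403838-143421901, plus strand) gave 55.6, 56.3, 50.5, 58.0 and 62.5 CPM at ZT0, 67.4, 65.04, 73.9, 65.1 and 75.0 at ZT6, 62.7, 66.4, 54.9, 63.7 and 61.5 at ZT12 and 67.2, 63.4, 61.8, 67.8 and 64.4 at ZT18. All libraries of ZT6 were above those of ZT0, and ZT12 overlapped with all other times. It rose by 0.29 ± 0.058 from ZT0 to ZT6 (adjusted p = 0.00049, any-time 0.0014), a step that was not called with library totals (adjusted p = 0.016). Kdelr1, the member of this family with the highest FPKM, gave 79.1, 87.3, 85.6, 90.3 and 88.4 CPM at ZT0, 88.3, 88.4, 96.2, 82.8 and 91.7 at ZT6, 101, 91.5, 95.7, 103 and 98.8 at ZT12 and 89.5, 93.9, 83.2, 88.0 and 87.3 at ZT18 (adjusted p = 0.021). Its ZT12 libraries were all above those of ZT0 and overlapped with the other times. Kdelr3 averaged 13.3, 15.6, 13.7 and 13.96 CPM (adjusted p = 0.13).

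The SNAREs of this step comprise Stx5a, Gosr2, Bet1, Sec22b and Ykt6. Stx5a, syntaxin 5, a SNARE of the cis-Golgi (chr19:8741413-8756069, plus strand), gave 134, 125, 117, 135 and 135 CPM at ZT0, 138, 131, 131, 123 and 140.0 at ZT6, 129, 117, 126, 125 and 119 at ZT12 and 107, 108, 119, 114 and 111 at ZT18. The ZT18 libraries were all below those of ZT6 and overlapped with ZT0 and ZT12. It fell by 0.25 ± 0.051 in ZT18 minus ZT6 (adjusted p = 0.00082) and peaked at 4.88 h with a peak-to-trough fold of 1.19 (cosine adjusted p = 0.0013, any-time 0.0014). These 3 calls of Stx5a were kept under each of the 28 alternative settings.

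Sec22b, the SNARE of ER-derived vesicles (chr3:97901190-97923276, plus strand), gave 64.6, 65.7, 68.2, 63.9 and 64.4 CPM at ZT0, 61.1, 63.7, 63.2, 66.9 and 70.2 at ZT6, 77.7, 69.8, 78.1, 70.9 and 79.1 at ZT12 and 69.8, 67.7, 61.5, 66.5 and 71.7 at ZT18. All ZT12 libraries were above those of ZT0, and they overlapped with those of ZT6 and ZT18. It rose by 0.21 ± 0.052 from ZT6 to ZT12 (adjusted p = 0.0077, any-time 0.0049). The any-time call was lost with library totals (adjusted p = 0.66), without the 3 libraries with most heat shock RNA (0.028), of which 2 are of ZT12, and without ZT12 replicate 1, 3 or 5 (0.021 to 0.025). The step from ZT6 to ZT12 was lost in 12 of 28 alternatives, without any one of ZT0 replicate 2, ZT6 replicates 1 to 4, ZT12 replicates 1, 3 and 5 and ZT18 replicate 2 among them. Gosr2, Bet1 and Ykt6 averaged 74.7, 73.5, 78.8 and 71.3, 47.8, 46.9, 45.8 and 45.1 and 44.7, 47.4, 45.5 and 46.6 CPM, with adjusted p of 0.13, 0.48 and 0.6. The Golgi matrix genes Golga2, for GM130, and Gorasp2, for GRASP55, averaged 54.0, 56.4, 54.4 and 55.2 and 121, 125, 132 and 129 CPM (adjusted p = 0.76 and 0.15), and Yif1a, a membrane protein that cycles between ER and Golgi, averaged 26.4, 29.5, 30.9 and 26.4 (adjusted p = 0.037).

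The study's times also allow a comparison of the start of the dark phase with the start of the light phase, and of the middle of each phase. In ZT12 minus ZT0, none of the 40 genes passed by edgeR, against 3.86% of all genes (1.96% higher and 1.9% lower at ZT12), while 16 had an unadjusted p under 0.05 against 21.3% of all genes. By DESeq2, 3 were called, Cope, Kdelr1 and Sec22b, all higher at ZT12, 7.5% of the set against 5.46% of the genes given an adjusted p. Sec22b was also called by edgeR without ZT6 replicate 5, ZT12 replicate 2 or 4, or ZT18 replicate 3 or 5. The estimates leaned to ZT12, with 32 of 40 above 0 and a median of 0.078 on the log2 scale, beside 6942 of 13967 and -0.0017 for all genes. With library totals the medians were -0.091 and -0.17, and 38 genes of all were called higher and 921 lower, beside 274 and 265 on the TMM scale. The mean sum at ZT0 and ZT12 was 46.8 and 64.98 CPM for the enterocyte markers and 1617 and 3471 CPM for the heat shock genes, whose libraries overlapped, and their part in this lean was not tested. In 11 genes all 5 libraries of ZT12 were above all 5 of ZT0, against 3.98% of all genes. These were Arcn1, Arf1, Copb2, Cope, Gorasp2, Kdelr1, Sec22b, Sec23a, Surf4, Tmed10 and Tmed2, and no gene had the reverse order, against 3.25%. The summed CPM of the 40 genes was 4789 ± 56.5, 4875 ± 208, 5064 ± 87.4 and 4829 ± 78.1 in the order ZT0, ZT6, ZT12, ZT18, with all ZT12 libraries above all ZT0 libraries.

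In ZT18 minus ZT6, 4 of 40 genes were called, all lower at ZT18, against 8.24% of all genes called and 4.2% called lower. They were Stx5a, Sec24d, Cope and Preb, of which only Stx5a and Sec24d stayed called (2 genes) without any one of ZT6 replicates 1, 2 and 3 or ZT18 replicates 1, 2, 4 and 5, without the 3 libraries with most heat shock RNA or with library totals. In these settings all genes were called at 5.88% to 6.55% without 1 library, 6.5% without the heat shock libraries and 4.94% with library totals. Without ZT6 replicate 5 the 2 calls, against 7% of all genes, were Stx5a and, higher at ZT18, Sec23b. Without that library Sec23b was also called between any times. With all libraries none was called higher, against 4.05% of all genes. The median of the 40 was -0.014, beside 0.0046 for all genes, and 22 estimates were below 0. All ZT18 libraries were below all ZT6 libraries in Cope, Preb and Stx5a (3 genes) and above them in Arf1 (1 gene), against 5.75% of all genes in each direction. Of the steps of 6 hours, ZT6 minus ZT0 had 4 genes higher (Sec24a, Sec23a, Kdelr2, Copb1) and 1 lower (Sec16a), against 4.65% and 4.13% of all genes (8.78% together). ZT12 minus ZT6 had 3 higher (Sec16a, Sec22b, Sec31a) and 1 lower (Sec24a), against 2.34% and 2.24% (4.58% together). Without any one of ZT6 replicates 1 to 4 or ZT12 replicates 1 and 3 this step had 1 call. All genes were then called at 3.01% to 3.73%. The step had 2 without ZT0 replicate 2, ZT12 replicate 2 or 4 or ZT18 replicate 2, against 3.14% to 4.2%. Without the 3 libraries with most epithelial or most heat shock RNA it had 1, against 2.58% and 2.01%. ZT18 minus ZT12 had 1 higher (Sec24a) and 4 lower (Sec24d, Sec16a, Cope, Lman1), against 4.8% and 5.14% (9.94% together). With library totals the calls of Sec16a (adjusted p = 0.088) and Cope (0.11) in this step were lost. ZT0 minus ZT18 had 3 higher (Sec24d, Sec16a, Stx5a) and 2 lower (Sec23a, Sec24a), against 3.38% and 4.19% (7.57% together). The call of Stx5a in this step was lost without any one of ZT0 replicates 4 and 5 or ZT18 replicates 1, 2 and 5, at an adjusted p of up to 0.019, and without the 3 libraries with most heat shock RNA (0.016).

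**Figure D5:**
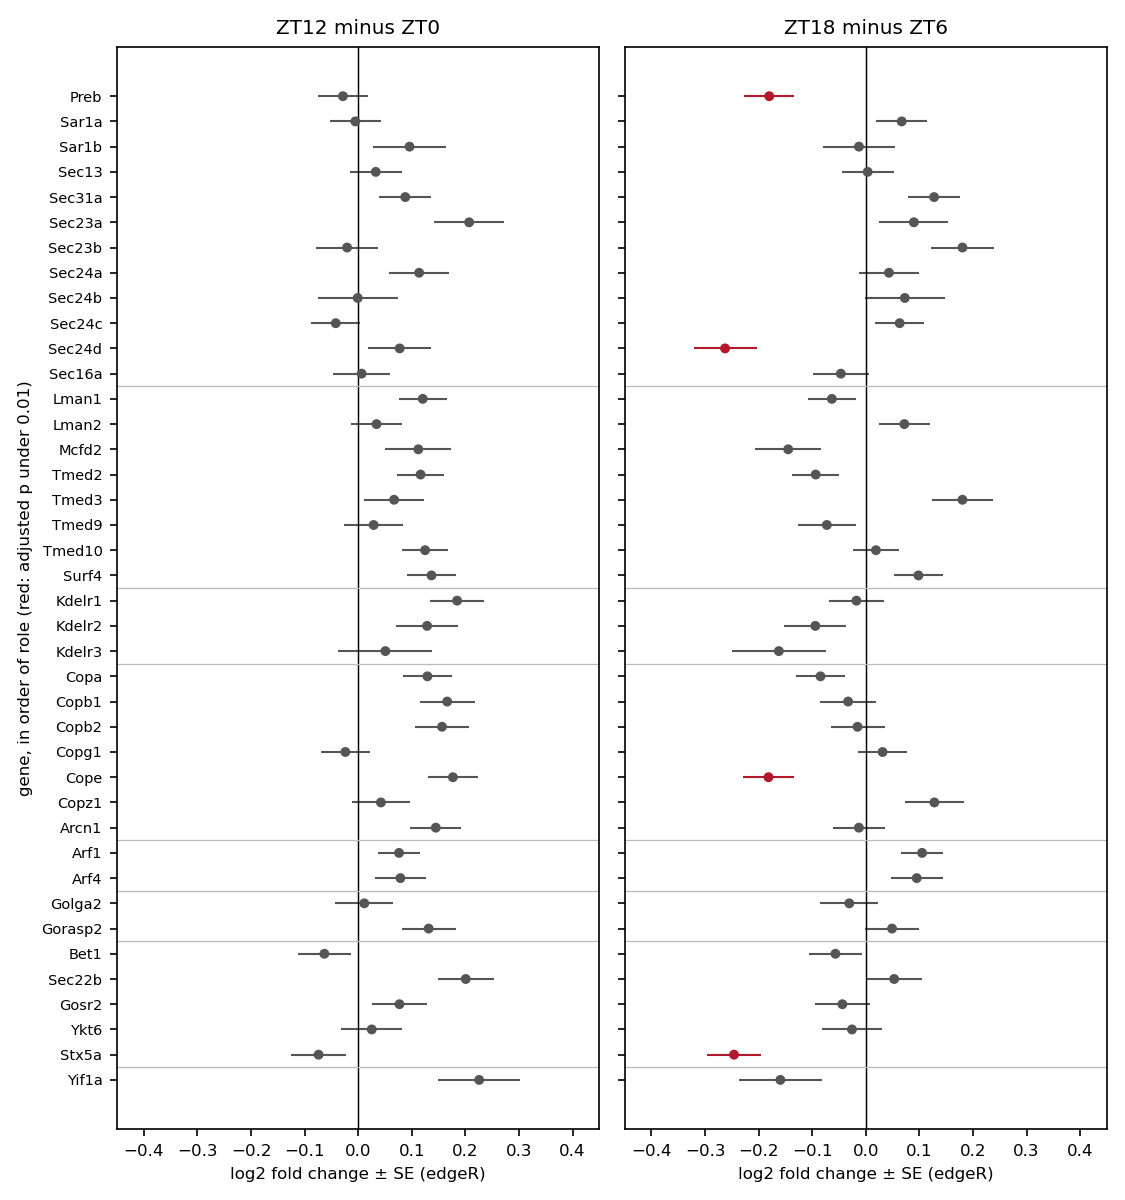
Log2 fold change ± SE of the 40 traffic genes in ZT12 minus ZT0 (left) and ZT18 minus ZT6 (right), from the fit of all 20 libraries, in order of role. Red marks an adjusted p under 0.01, reached by none on the left and by Preb, Sec24d, Cope and Stx5a on the right, all below 0.

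A 12-hour term, the mean of ZT0 and ZT12 minus the mean of ZT6 and ZT18, was added after the values of Sec24a had been seen. It was called in 5 genes, 2 higher and 3 lower at the light transitions, against 9.45% of all genes, 4.34% higher and 5.11% lower. Sec16a was higher at the light transitions by 0.24 ± 0.037 and Sec24d by 0.22 ± 0.042, and Sec24a, Sec23a and Kdelr2 were lower there, at -0.33 ± 0.039, -0.28 ± 0.046 and -0.18 ± 0.041. The adjusted p ran from 3.55e-07 for Sec24a to 0.0018 for Kdelr2. All 5 calls were kept under the 28 alternatives, library totals included. Because the term was shaped on values already seen, its outcome for Sec24a was set beforehand. These p-values and the alternatives, which reuse the same libraries, are thus a description and no support for such a pattern.

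The balance between paralogues was tested as the log2 ratio of their CPM within each library for 6 pairs in both 12-hour contrasts, by an exact two-sided permutation test of 5 against 5 libraries, with Benjamini-Hochberg adjustment over the 12 tests. None passed 0.05. With 12 tests the smallest possible p gives an adjusted p of 0.095 for a single ratio. No ratio can thus pass unless other ratios have a small p too, and no stability can be read from this outcome. The smallest p was that of Sec23b to Sec23a, whose mean log2 ratio was 1.87 ± 0.053 (SD, n = 5) at ZT0 and 1.64 ± 0.084 at ZT12, a difference of -0.23 with no overlap between the groups (exact p = 0.0079, the smallest possible, adjusted p = 0.095). Sec24d to Sec24c was 0.28 ± 0.16 at ZT6 and -0.039 ± 0.12 at ZT18, a difference of -0.32 (exact p = 0.016, adjusted p = 0.095), and 0.24 ± 0.056 at ZT0 and 0.36 ± 0.10 at ZT12 (difference 0.12, exact p = 0.024, adjusted p = 0.095). Sec24b to Sec24a differed by -0.11 in ZT12 minus ZT0 (exact p = 0.38) and by 0.027 in ZT18 minus ZT6 (exact p = 0.79), although it stood at -2.44 ± 0.19 and -2.55 ± 0.15 at the light transitions and at -3.02 ± 0.15 and -3.00 ± 0.17 between them, a contrast outside these tests. Arf4 to Arf1 had means of -0.20 to -0.18 over the 4 times. Its libraries ran from -0.27 to -0.063 at ZT6 and from -0.28 to -0.11 at ZT18. The ratios of Sar1b to Sar1a and of Kdelr2 to Kdelr1 had adjusted p of 0.33 to 0.59.

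A list of 47 further genes of the same traffic, all tested, gave 11 calls between any times, 23.4% against 19.5% of all genes. In ZT18 minus ZT6, 6 were called lower and 2 higher, 17.0% against 8.24%. These 8 calls became 5 without ZT6 replicate 2 or 3 or ZT18 replicate 5, against 6.52% to 6.55% of all genes. In ZT18 minus ZT12, 9 were called lower and 1 higher, 21.3% against 9.94%. These 10 calls became 5 without ZT18 replicate 3, against 8.41% of all genes. They became 6 without any one of ZT12 replicates 1, 2 and 3 or ZT18 replicates 1 and 4, against 7.31% to 8.02%. Without the 3 libraries with most epithelial RNA the 3 counts were 7, 6 and 5, against 15.1%, 6.74% and 6.88% of all genes. Library totals gave 9, 5 and 5 calls, against 17.6%, 4.94% and 8.47%. Leaving out the 3 libraries with most heat shock RNA gave 10, 5 and 7, against 15.7%, 6.5% and 6.44%. The 6 with the smallest any-time p were Use1, Stx18, Golgb1, Arfgap3, Gbf1 and Bcap31. Use1 and Stx18, SNAREs of the ER membrane that receive COPI vesicles, averaged 29.4, 34.2, 35.2 and 24.8 CPM and 20.5, 19.7, 22.1 and 14.9 CPM over the 4 times (adjusted p = 1.38e-07 and 2.61e-07), and fell from ZT12 to ZT18 by 0.50 ± 0.060 and 0.57 ± 0.065. Golgb1, the Golgi tether giantin, averaged 39.47, 42.4, 46.3 and 28.8 CPM and fell by 0.69 ± 0.078 in the same step (any-time adjusted p = 1.03e-06). Arfgap3, which ends the ARF1 cycle, averaged 116, 122, 123 and 94.8 (adjusted p = 1.88e-05). These 4 genes had their lowest mean at ZT18, as had Sec24d, Cope, Stx5a and Preb. Gbf1, which loads ARF1, averaged 72.0, 61.2, 69.9 and 58.4 CPM and was higher at the light transitions by 0.25 ± 0.037 (adjusted p = 1.33e-05), the direction of Sec16a. Bcap31, an ER membrane chaperone, had its highest mean at ZT18, with 36.8, 31.2, 34.9 and 40.7 CPM over the day (adjusted p = 5.38e-05).

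Of the transcription factors known to drive secretory pathway genes, Creb3l2, which induces Sec23a in cartilage, averaged 270.97, 233, 287 and 229 CPM at ZT0, ZT6, ZT12 and ZT18 (adjusted p = 6.03e-07), higher at both light transitions. Atf6b averaged 121, 119.9, 127 and 103 (adjusted p = 0.00013) and Atf6, an ER stress sensor, 294, 375, 301 and 319 (adjusted p = 0.001), with its highest mean at ZT6. Xbp1, the plasma cell regulator of the secretory pathway, averaged 2029, 1907, 1980.0 and 2005 CPM and was not called (adjusted p = 0.055); its splicing, which sets its activity, cannot be read from gene counts. Creb3 and Creb3l1 averaged 27.6, 27.0, 28.0 and 26.1 and 2.77, 2.71, 2.97 and 2.75 CPM (adjusted p = 0.63 and 0.91), and Creb3l3 did not pass the filter on low counts.

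The promoters of the members were searched for sites known to be read by XBP1, ATF6, CREB and clock proteins, in RefSeq windows of 300 bases (GRCm38.p6, 250 before to 50 after a start). A total of 36 of the 40 genes had 41 windows, and Tmed2, Kdelr2, Lman1 and Arcn1 had none. The core TGACGTG of the unfolded protein response element (both strands) was found in 8 windows of 7 genes, 19.5% of the members' windows and 2.01% of all 32851 windows. The 2 windows of Arf1 hold 1 and the same site. The shorter run CCACG, part of both ER stress elements, was also more frequent in the members' windows, in 75.6% against 32.8% of all. The 7 genes with TGACGTG were Arf1, Copb1, Copb2, Kdelr3, Sec23a, Sec24d and Stx5a. The full ER stress elements ERSE and ERSE-II were found in none, against 0.119% and 0.0365% of all windows. The E-box CACGTG, the site of clock and many other factors, was found in 7.32% of the members' windows (Mcfd2, Sar1a, Tmed10) and 7.15% of all, the D-box TTATGNAA in 2.44% (Gosr2) and 3.38%, and the cyclic AMP element TGACGTCA in 4.88% (Cope, Gosr2) and 1.79%. TGACGTG, TGACGTCA and CACGTG share letters but cannot match at the same place, and these counts are descriptions of letters, not of binding. The background was the windows of all genes, expressed or not, and was not matched to the members for expression or base content. Shown here for the 4 genes that were called between any times and held TGACGTG are 100 bases before to 20 after the start, 5′ to 3′ on the gene's strand, with the match on either strand in capitals.
Sec24d (chr3:123267396-123267516, plus strand): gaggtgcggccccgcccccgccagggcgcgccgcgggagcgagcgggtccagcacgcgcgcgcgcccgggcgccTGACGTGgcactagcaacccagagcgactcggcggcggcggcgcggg
Sec23a (chr12:59011997-59012117, minus strand): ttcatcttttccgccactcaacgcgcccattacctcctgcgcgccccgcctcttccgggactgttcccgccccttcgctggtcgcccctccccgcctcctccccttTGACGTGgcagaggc
Copb1 (chr7:114254660-114254780, minus strand): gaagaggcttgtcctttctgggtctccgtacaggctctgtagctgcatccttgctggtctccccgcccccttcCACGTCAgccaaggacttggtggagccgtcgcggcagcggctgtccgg
Stx5a (chr19:8741324-8741444, plus strand): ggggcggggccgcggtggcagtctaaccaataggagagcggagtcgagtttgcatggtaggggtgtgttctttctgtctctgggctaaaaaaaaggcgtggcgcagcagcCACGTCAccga
Counting the start as base 0, the match lay at bases -26 to -20 in Sec24d, 6 to 12 in Sec23a, -27 to -21 in Copb1 and 10 to 16 in Stx5a, which had another at 39 to 45. These 4 genes did not share a time course. Sec24d and Stx5a had their lowest mean at ZT18, while Sec23a and Copb1 had their lowest mean at ZT0, and the 3 members with the core that were not called, Arf1, Copb2 and Kdelr3, had any-time adjusted p of 0.067, 0.068 and 0.13.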

How the data were processed

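RNA was measured in 20 libraries of sorted CD138+ IgA+ small-intestinal plasma cells, 5 animals at each of 4 times. The authors deposited raw counts per gene for 47069 genes and FPKM for 18886 of them. Poly-A RNA was fragmented, reverse-transcribed with random hexamers and sequenced as pairs on a NovaSeq instrument. The aligner, build, annotation and strandedness were not given in the sources used here. The deposited FPKM values were recovered from the counts with 1 length for each gene and the library total as depth (relative tolerance 1e-06). FPKM was used only for levels between genes and for shares within a gene family. Paralogues can share reads, and how multi-mapping reads were counted is not given in the sources used here.

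Counts were analysed with edgeR 4.0.16 (limma 3.58.1) in R 4.3.3. The filter was filterByExpr and the scaling TMM, and a robust quasi-likelihood model of 4 groups was fitted (common BCV 0.224). All tests were two-sided, with Benjamini-Hochberg adjustment and a limit of 0.01 for a call. The 24-hour cosine was tested as both 12-hour contrasts together. Coat means used log2 CPM with a prior count of 2, and paralogue ratios the same values. DESeq2 1.42.0, other scalings, filters and thresholds, a replicate block and leaving out libraries were alternatives. The fit was tested on simulated counts. Ratios and outliers were computed in Python 3.11.15 with numpy and pandas. The symbols of 38 members came from the FPKM table and those of Sec13 and Copb2 from GENCODE M21, whose GRCm38 gene positions are given.

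The members, the list of 47 further genes and the markers were chosen with earlier results of these data known. Values in every library are given for the 10 members with the smallest any-time p and for the member with the highest FPKM in each role of 3 or more genes, and the others by their group means. Of the further genes, the 6 with the smallest any-time p are named. Single mice are the replicates, and p-values measure the spread between these animals.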

Additional observations from a re-analysis of the deposited data

Results flagged for a closer look

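Among 160 groups of 5 libraries (40 genes at 4 times), 6 held a library whose gap to its nearest neighbour exceeded 0.71 of the group's range, where chance gives about 1 in 20 groups. ZT6 replicate 5 was the highest library for Kdelr3 (17.8 CPM, others 15.0 to 15.1) and for Copz1 (56.8 CPM, others 49.5 to 50.3). It was also the library without which Sec24d lost its cosine call. Arf1 was lowest in ZT0 replicate 1 (219 CPM, others 230.5 to 232) and highest in ZT12 replicate 1 (254 CPM, others 235 to 239). Cope was highest in ZT12 replicate 4 (196 CPM, others 177 to 180.3), and Sec16a lowest in ZT18 replicate 4 (78.4 CPM, others 82.5 to 83.9). Of these genes Cope and Sec16a were called between any times, and both stayed called without that library.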

How the results depend on the processing

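The any-time calls of Sec24a, Sec24d, Sec23a, Sec16a, Kdelr2 and Stx5a were kept under all 28 alternatives, and those of Copb1, Cope and Sec22b were lost under 4, 1 and 5 of them. No called value changed sign. At an adjusted p under 0.05 the counts, each beside the percentage of all genes called, were 20 between any times (31.0%), 14 by the cosine (20.2%), 6 in ZT12 minus ZT0 (8.21%), 8 in ZT6 minus ZT0 (15.8%), 12 in ZT18 minus ZT12 (17.9%) and 8 in ZT0 minus ZT18 (13.3%). By DESeq2 they were 17, 10 and 3 for the first 3 of these (24.6%, 15.6% and 5.46% of genes given an adjusted p). With library totals they were 6 between any times (17.6%), 2 in ZT18 minus ZT6 (both lower, 4.94%), 2 in ZT6 minus ZT0 (both higher, 4.92%), 2 in ZT12 minus ZT6 (both lower, 5.35%) and 3 in ZT18 minus ZT12 (2 higher and 1 lower, 8.47%). When all genes with 10 or more counts were tested, which raises the number of genes adjusted for to 19863, they were 2 in ZT18 minus ZT6 (5.48%) and 2 in ZT12 minus ZT6 (3.12%). TMM without immunoglobulin genes gave 1 call in ZT12 minus ZT0 (3.87%). Without the 3 libraries with most epithelial markers there was 1 in ZT12 minus ZT0 (2.88%) and 1 in ZT12 minus ZT6 (2.58%), and without the 3 with most heat shock RNA 2 in ZT18 minus ZT6 (6.5%) and 1 in ZT12 minus ZT6 (2.01%). The cause of these shifts was not tested.

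Leaving out 1 library gave 8 to 13 calls between any times, against 16.6% to 19% of all genes. By the cosine there were 3 to 6 (9.18% to 11.5%) and in ZT12 minus ZT0 0 to 1 (2.75% to 4.01%). ZT18 minus ZT6 had 2 to 4 (5.88% to 8.37%) and ZT12 minus ZT6 had 1 to 4 (3.01% to 4.76%). Adjusted for the 12 tests, the difference of Sec23b to Sec23a in ZT12 minus ZT0 (-0.26 to -0.20 when a library was left out) passed 0.05 without ZT12 replicate 5 (-0.21). That of Sec24d to Sec24c in ZT12 minus ZT0 (0.077 to 0.14) passed without ZT12 replicate 5 (0.14), and in ZT18 minus ZT6 (-0.37 to -0.26) without ZT6 replicate 2 (-0.37). In each case this was because a second ratio was then also at the smallest possible p. Without ZT6 replicate 2 that second ratio was Sec23b to Sec23a in ZT12 minus ZT0, which kept all its libraries and then passed as well.

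Same-numbered libraries did not deviate together: the correlation of their deviations was over 0.1 in 0 of 30 pairs (-0.12 to 0.076), so the numbers do not pair the animals. With the replicate number as a block, the counts of members called are given beside the percentage of all genes called. They were 9 between any times (18.7%), 3 by the cosine (10.8%), 0 in ZT12 minus ZT0 (3.8%) and 4 in ZT18 minus ZT6 (7.98%). By step there were 5 in ZT6 minus ZT0 (8.54%) and 3 in ZT12 minus ZT6 (4.53%). Another 5 were called in ZT18 minus ZT12 (9.69%), 5 in ZT0 minus ZT18 (7.45%) and 6 in the 12-hour term (9.01%). For the paralogue ratios, a sign-flip test of 5 pairs cannot pass 0.05.

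With 1 day sampled every 6 hours, a 24-hour cycle cannot be told from shorter cycles with the same values at these times. Nor can a repeating cycle be told from a single change within the day. The 24-hour cosine and the 12-hour term thus describe the sampled times and do not establish a period. The lowest count of a member in a library was 411, for Kdelr3, and differences within the spread of 5 animals were not detectable.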
